A study of Mus musculus with 3 samples.

Results

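The costimulatory TNF receptors described here are 6 genes of T cells: Tnfrsf9 (4-1BB), Tnfrsf4 (OX40), Tnfrsf18 (GITR), Cd27, Tnfrsf1b (the TNF receptor TNFR2) and Fas (CD95). They were found by symbol in the annotation of the array, taking each probe set that names 1 of them and no other gene. All 6 were found, on 9 of the 45101 probe sets, out of 18194 genes named in this way. Tnfrsf9 had 3 probe sets, Tnfrsf1b had 2 and the others had 1 each.

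Receptors of the TNF family are membrane proteins that are brought together by ligands with several binding faces. Most members named here pass the signal on through TRAF adaptor proteins to NF-kappaB, which in T cells supports division and survival after the T cell receptor has been engaged. Fas instead carries a death domain, which recruits Fadd and caspases, and it is known for the removal of activated T cells. Cd27 is already present on naive T cells, Tnfrsf9 and Tnfrsf4 are known as receptors that appear after activation, and Tnfrsf18, Tnfrsf4 and Tnfrsf1b are also abundant on regulatory CD4 T cells.

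RNA of CD8 T cells of mice was measured on 3 arrays, 1 for each group, with the tissue given as MLN, in this study the mesenteric lymph node. All 3 groups carry the CL4 T cell receptor, a transgene by which CD8 T cells recognise hemagglutinin (HA) of influenza virus, and the CL4-TCR group has this alone. The other groups, named VILLIN-HA/CL4-TCR and, with a plus sign, Villin-HA + CL4-TCR, also involve HA under the promoter of villin, which is active in the epithelium of the gut and not in T cells. The submitters list ordinary, activated and regulatory CD8 populations, and the labels do not say which HA group is which; the sources used here give no treatment, time, age or number of mice. With 1 array per group there is no spread between samples, so no test is possible and every difference below is one between 2 single arrays.

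Values are MAS5 signals, which summarise the probes of a probe set on a linear scale. Signals were compared as log2 differences after values below 31.7, the median of all values and called the floor, had been raised to it. The words higher and lower are used for genes that differ by 2-fold or more, that is 1 on the log2 scale, and a gene counts as measured where at least 1 of the 2 arrays lies above the floor. A fold against an array at the floor is a lower bound. The probe set with the highest mean signal stands for a gene. Where 3 signals are listed, the first is that of CL4-TCR, the next that of VILLIN-HA/CL4-TCR and the last that of Villin-HA + CL4-TCR. Signals of different probe sets are not comparable as levels, so each is compared only with itself on the other arrays. The only error available is the disagreement between probe sets of 1 gene, whose pooled SD was, in log2 units, 0.43 for VILLIN-HA/CL4-TCR compared with CL4-TCR, 0.65 for Villin-HA + CL4-TCR compared with CL4-TCR, and 0.61 between the HA arrays. This SD does not cover the spread between mice, sorts or arrays.

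CD8 T cell genes were carried by each array, and some transcripts of other cells came with them. The 9 CD8 T cell markers found were above the floor on all 3 arrays, with a summed signal between 26850 and 28480. Such sums are dominated by their strongest probe sets, here Ptprc with 11134.3, 11458.9 and 11082.2, and do not measure cell content. Cd2 was 3.23-fold lower on VILLIN-HA/CL4-TCR than on CL4-TCR. Cd5 was 2.13-fold higher on VILLIN-HA/CL4-TCR than on Villin-HA + CL4-TCR. By the probe sets that stand for them, no other of these markers was past 2-fold. Further probe sets did not all follow. Those of Cd8a ran from -0.01 to 2.01 on Villin-HA + CL4-TCR, as log2 differences from CL4-TCR. Between the HA arrays they ran from -2.07 to 0.10. A second Cd28 probe set differed from CL4-TCR by 1.07 on VILLIN-HA/CL4-TCR and by 1.29 on Villin-HA + CL4-TCR. Of 4 CD4 T cell markers, 1 lay above the floor on each array, Zbtb7b on CL4-TCR and Foxp3 on the HA arrays. Cd4 itself had signals of 5.9 to 9.4. Myeloid and dendritic cell markers summed to 389.5, 1674 and 2312, so the sum was higher in both HA groups. The genes behind it differed between the HA arrays. Of 12 measured ones, 3 were higher and 5 lower on VILLIN-HA/CL4-TCR than on Villin-HA + CL4-TCR, against 6.13% and 8.95% of all measured genes. Lyz2, Csf1r and C1qb were the higher ones, and Cd68, Fcgr3, S100a8, S100a9 and Itgax the lower ones. Lyz2 had signals of 84.5, 817.3 and 312.2, and S100a8 had 9.5, 12.9 and 738.7. Skeletal muscle markers summed to 79.9, 109.4 and 4944. The Gapdh control probe sets had a ratio of 3′ to 5′ signal of 18.4, 46.2 and 3.35, which reflects RNA integrity and labelling length. The same ratio of the actin control was 1.98, 2.455 and 1.802, so the arrays were much closer by that control. Xist, expressed in female cells, had signals of 5442.5, 2.5 and 1339, and Eif2s3y, a gene of the Y chromosome, had 13.4, 1496 and 746.9. The Villin-HA + CL4-TCR array thus carried both female and male transcripts, and the sex of the mice and the group cannot be told apart.

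**Figure D1:**
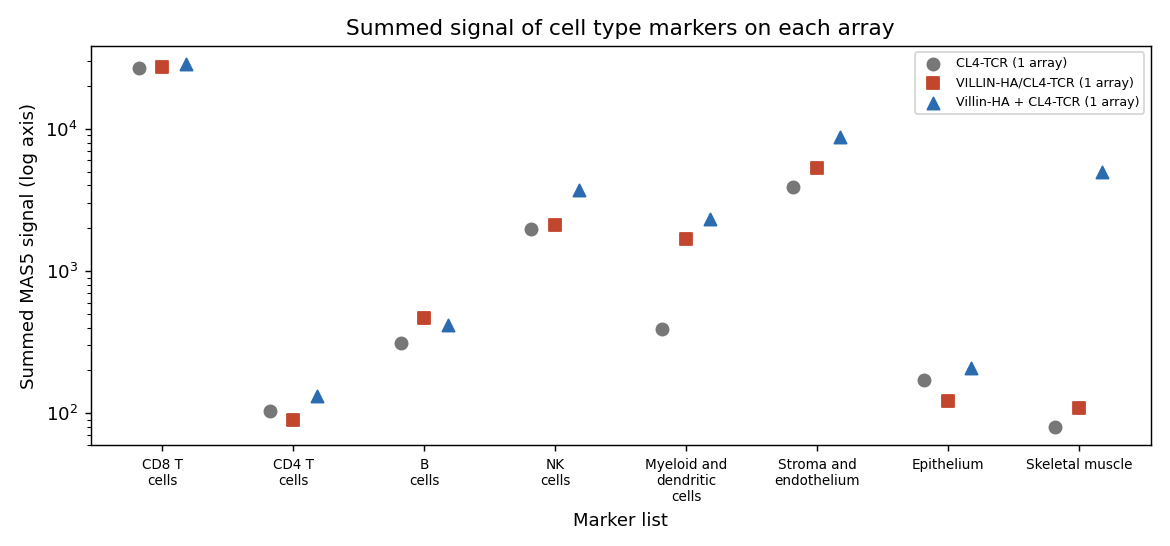
Summed MAS5 signal (log axis) of the markers of each cell type on the 3 arrays, 1 point per array. The CD8 T cell sums lie between 26850 and 28480, of which Ptprc holds 11082.2 to 11458.9. The skeletal muscle sum is 4944 for Villin-HA + CL4-TCR and 79.9 and 109.4 for the others. The NK cell and stroma sums are mostly those of Nkg7 and Vim, which T cells express too.

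The receptor genes followed different patterns over the 3 arrays. Tnfrsf9 was far higher on both HA arrays and highest on VILLIN-HA/CL4-TCR. Tnfrsf4 and Tnfrsf18 were higher on Villin-HA + CL4-TCR, by 2.26-fold and 2.27-fold against CL4-TCR, and differed by less than 2-fold on VILLIN-HA/CL4-TCR. Fas was higher on both HA arrays, Tnfrsf1b was close to or past 2-fold on both, and Cd27 was past 2-fold in no comparison. Against CL4-TCR, 2 of 6 members were higher on VILLIN-HA/CL4-TCR, where 7.43% of all 11260 measured genes were higher. On Villin-HA + CL4-TCR, 5 of 6 were higher, where 11.9% of 12196 measured genes were. None of the 6 was lower in either comparison, against 6.63% and 9.53% of all measured genes. The median log2 difference of the members was 0.61 and 1.18, and that of all measured genes was -0.04 and 0.06. These comparisons share the CL4-TCR array, so any peculiarity of that array enters both. With all arrays scaled to the same median signal, only 2 of the 5 stayed past 2-fold on Villin-HA + CL4-TCR, Tnfrsf9 and Fas, and Tnfrsf1b was added on VILLIN-HA/CL4-TCR.

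Other transcripts moved with these differences. Myeloid and dendritic cell markers were higher for 3 of 9 measured genes on VILLIN-HA/CL4-TCR and for 7 of 11 on Villin-HA + CL4-TCR, with none lower; Itgam, Flt3 and Siglech lay below the floor on each array. Stromal and endothelial markers were higher for 4 of 6 and skeletal muscle markers for 6 of 6 on Villin-HA + CL4-TCR, and for none on VILLIN-HA/CL4-TCR. NK cell markers were higher for 2 of 4 measured genes on Villin-HA + CL4-TCR, Klrk1 and Tyrobp, and for 1 of 3, Tyrobp, on VILLIN-HA/CL4-TCR. Of all measured genes, 11.9% were higher on Villin-HA + CL4-TCR and 7.43% on VILLIN-HA/CL4-TCR. Markers below the floor on CL4-TCR, among them all 6 of skeletal muscle, could not be lower on an HA array. The counts of these lists are therefore partly fixed by the rule for measured genes. When the arrays were instead scaled to their CD8 T cell markers, the same 5 members were past 2-fold on Villin-HA + CL4-TCR, and the same 2 with Tnfrsf1b on VILLIN-HA/CL4-TCR. The part of other cells in the receptor signals was not tested. In a bulk sample, fewer cells with a transcript and less of it per cell cannot be told apart.

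**Figure D2:**
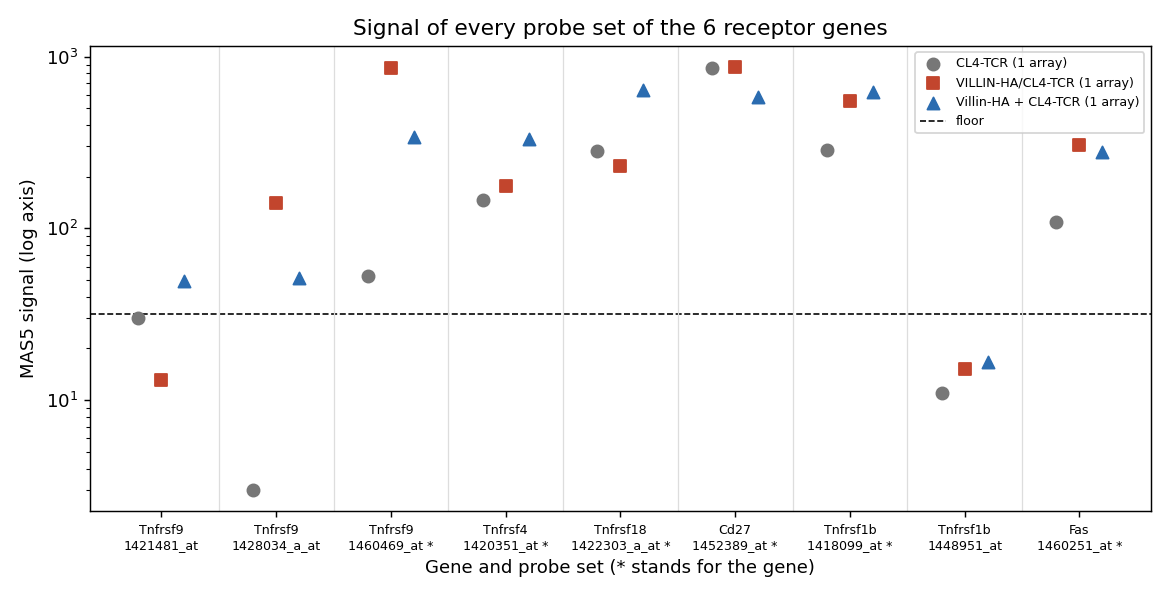
MAS5 signal (log axis) of all 9 probe sets of the 6 genes, 1 point per array, with the floor of 31.7 as a dashed line and an asterisk on the probe set that stands for its gene. Probe set 1460469_at of Tnfrsf9 goes from 53.1 to 853.4 and 342.1, while Cd27 stays between 583.2 and 869.4; points are to be compared within a column only.

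Tnfrsf9 encodes 4-1BB, a receptor that sustains the division and survival of CD8 T cells. Its probe set 1460469_at had signals of 53.1, 853.4 and 342.1. The CL4-TCR array was thus the low one, little above the floor. The log2 difference from CL4-TCR was 4.01 (16.1-fold) and 2.69 (6.44-fold). Of all measured genes, 21 had a larger positive difference in the first comparison and 208 in the second. The study is known to have picked this gene from these arrays, so these values are no independent evidence.

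The other probe sets of Tnfrsf9 gave weaker signals and did not all follow. Probe set 1428034_a_at had signals of 3.0, 141.4 and 51.2, which gives at least 4.46-fold and at least 1.61-fold. Here the Villin-HA + CL4-TCR array is also above CL4-TCR, but the bound falls short of 2-fold. Probe set 1421481_at had signals of 29.9, 13.1 and 49.1, so it is at the floor on 2 arrays and its highest value is on Villin-HA + CL4-TCR. With the median of the measured probe sets in place of the chosen one, Tnfrsf9 had a log2 difference of 3.08 on VILLIN-HA/CL4-TCR and 0.69 on Villin-HA + CL4-TCR, and the latter no longer counts as 2-fold. Between the HA arrays, VILLIN-HA/CL4-TCR was the higher by 2.50-fold with probe set 1460469_at and by 2.76-fold with 1428034_a_at.

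The promoter of Tnfrsf9 is shown because this gene has the largest difference of the 6. RefSeq (GRCm38.p6) gives 2 start sites for it, and each window runs from 250 bases before the start to 50 after it, on the plus strand. The first is chr4:150919905-150920204 and the second, further downstream, is chr4:150927749-150928048. Both strands were searched for the NF-kappaB motif kappaB, for AP-1 (TGANTCA) and for the core of NFAT sites (GGAAA), and matches are in capitals. These are motifs of factors that act downstream of the T cell receptor and of costimulation.
Tnfrsf9, first start: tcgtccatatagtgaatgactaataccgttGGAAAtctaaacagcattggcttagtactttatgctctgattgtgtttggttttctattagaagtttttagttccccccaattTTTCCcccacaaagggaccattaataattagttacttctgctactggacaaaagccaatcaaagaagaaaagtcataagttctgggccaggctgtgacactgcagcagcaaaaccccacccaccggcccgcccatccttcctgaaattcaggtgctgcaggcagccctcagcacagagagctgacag
Tnfrsf9, second start: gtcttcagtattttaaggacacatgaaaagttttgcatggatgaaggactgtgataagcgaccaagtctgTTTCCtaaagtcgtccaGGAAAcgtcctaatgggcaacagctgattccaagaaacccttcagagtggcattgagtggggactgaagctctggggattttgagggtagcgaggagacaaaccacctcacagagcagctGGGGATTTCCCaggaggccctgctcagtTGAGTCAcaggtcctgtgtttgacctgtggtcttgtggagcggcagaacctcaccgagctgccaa
The second window held kappaB matches that overlap each other between positions -43 and -33 from the start, together with an NFAT core inside them, and 1 AP-1 match at -15. The first window held 2 NFAT cores and neither of the longer motifs. A kappaB match was present in 8.46% of all 32851 promoter windows of this length, an AP-1 match in 7.81% and an NFAT core in 61.3%. A match describes letters only, and which start site these cells used was not measured.

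Tnfrsf4 encodes OX40, which prolongs T cell responses, and Tnfrsf18 encodes GITR, which costimulates effector cells and is abundant on regulatory CD4 T cells. Tnfrsf4 had signals of 145.9 on CL4-TCR, 176.2 on VILLIN-HA/CL4-TCR and 329.6 on Villin-HA + CL4-TCR. Tnfrsf18 had 280.9, 229.6 and 637.3. In both genes the Villin-HA + CL4-TCR array is the high one and the other arrays lie close to each other.

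On the log2 scale, Tnfrsf4 differed from CL4-TCR by 0.27 on VILLIN-HA/CL4-TCR and by 1.18 on Villin-HA + CL4-TCR. For Tnfrsf18 the differences were -0.29 and 1.18. The 2 small differences lie within the probe set SD of 0.43. That SD does not cover the spread between arrays, so neither a difference nor a likeness of these groups is shown. The larger ones exceed the SD of 0.65 of their comparison, yet 1088 and 1075 of the measured genes had a larger positive difference there. Under median scaling they became 0.97 and 0.98 and fell just short of 2-fold. Between the HA arrays, Tnfrsf18 was 2.78-fold lower on VILLIN-HA/CL4-TCR, and this was past 2-fold under all 8 processing settings. Tnfrsf4 had a ratio of 1.87 in the same direction, past 2-fold under none of them. Both genes have 1 probe set with signals above the raised floor of 68.6. Settings that raise the floor or change the choice of probe set could therefore not alter their values.

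The genes Tnfrsf4 and Tnfrsf18 are next to each other on chromosome 4, with no other protein-coding gene between them in the RefSeq table. Tnfrsf9 and Tnfrsf1b are on the same chromosome with other neighbours, Cd27 is on chromosome 6 and Fas on chromosome 19. The promoter windows of the adjacent pair, both on the plus strand, are printed because both genes were highest on Villin-HA + CL4-TCR, unlike Tnfrsf9. Their differences from CL4-TCR on VILLIN-HA/CL4-TCR had opposite signs, 0.27 and -0.29, and a link to their position was not tested. They lie at chr4:156013445-156013744 for Tnfrsf4 and chr4:156026072-156026371 for Tnfrsf18 (GRCm38.p6).
Tnfrsf4: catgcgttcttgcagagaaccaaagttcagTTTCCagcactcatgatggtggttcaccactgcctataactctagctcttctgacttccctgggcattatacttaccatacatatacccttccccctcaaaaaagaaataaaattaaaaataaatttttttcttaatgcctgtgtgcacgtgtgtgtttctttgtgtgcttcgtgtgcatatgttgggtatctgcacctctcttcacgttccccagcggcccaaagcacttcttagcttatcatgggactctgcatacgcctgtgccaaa
Tnfrsf18: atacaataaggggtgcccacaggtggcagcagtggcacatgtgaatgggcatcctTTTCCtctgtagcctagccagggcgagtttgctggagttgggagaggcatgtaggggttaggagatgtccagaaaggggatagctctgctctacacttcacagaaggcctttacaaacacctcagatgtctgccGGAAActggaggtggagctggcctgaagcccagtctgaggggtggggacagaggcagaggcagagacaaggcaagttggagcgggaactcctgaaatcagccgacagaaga
The Tnfrsf4 window held 1 NFAT core and the Tnfrsf18 window 2, and neither held the kappaB or AP-1 letters. Their GC content was 43.7% and 55.3%, on either side of the median of 52.7% over all windows.

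Fas, the death receptor of activated lymphocytes, had signals of 109.2 on CL4-TCR, 304 on VILLIN-HA/CL4-TCR and 279.4 on Villin-HA + CL4-TCR. The HA arrays are close to each other and the CL4-TCR array is low. The log2 difference from CL4-TCR was 1.48 (2.78-fold) and 1.36 (2.56-fold), past 2-fold under all 8 settings in both comparisons. The settings that raise the floor or change the choice of probe set could not alter these values. Between the HA arrays the log2 difference was 0.12, well within the probe set SD of 0.61. Fas had 1 probe set, so no second one could be set beside it.

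The Fas promoter window, chr19:34290409-34290708 on the plus strand (GRCm38.p6), is shown as that of the member which was higher on both HA arrays to a similar degree.
Fas: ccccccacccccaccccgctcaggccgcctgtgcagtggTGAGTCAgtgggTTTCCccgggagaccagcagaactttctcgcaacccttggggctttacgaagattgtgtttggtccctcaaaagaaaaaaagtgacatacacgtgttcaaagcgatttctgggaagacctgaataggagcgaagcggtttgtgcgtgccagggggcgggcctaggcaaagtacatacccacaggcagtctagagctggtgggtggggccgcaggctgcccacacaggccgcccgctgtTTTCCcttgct
It held 1 AP-1 match at position -211 and 2 NFAT cores, and 14 CG dinucleotides where the median window had 7. The Cd27 window held 1 NFAT core and the Tnfrsf1b window no match, and no window of the 6 genes held the TATA letters TATAAA, which 13.6% of all windows do.

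**Figure D3:**
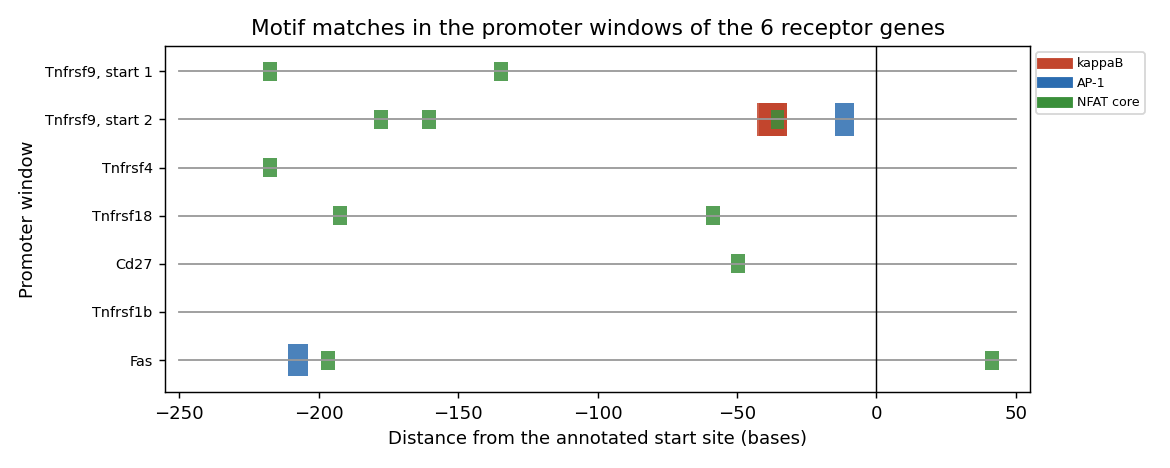
Positions of motif matches (kappaB red, AP-1 blue, NFAT core green) in the 7 promoter windows of the 6 genes, against the distance in bases from the annotated start site. The window of the second Tnfrsf9 start is the only one of the 7 with a kappaB match, at -43 to -33, and AP-1 matches appear there and in the Fas window.

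Tnfrsf1b encodes TNFR2, the TNF receptor without a death domain, which costimulates T cells. Its probe set 1418099_at had signals of 286.6 on CL4-TCR, 555.3 on VILLIN-HA/CL4-TCR and 626.6 on Villin-HA + CL4-TCR. As with Fas, the HA arrays lie together above CL4-TCR. The log2 difference was 0.95 (1.94-fold) on VILLIN-HA/CL4-TCR, just short of 2-fold, and 1.13 (2.19-fold) on Villin-HA + CL4-TCR, just past it. So 1 is called and the other is not, although the HA arrays differ from each other by only -0.17 on the log2 scale. The second probe set, 1448951_at, lay below the floor on all 3 arrays with signals of at most 16.6 and gave no measure.

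Cd27, the receptor for CD70 that naive and memory T cells carry, had signals of 855.4 on CL4-TCR, 869.4 on VILLIN-HA/CL4-TCR and 583.2 on Villin-HA + CL4-TCR. The Villin-HA + CL4-TCR array is the low one, in contrast to the other 5 members. Its log2 difference from CL4-TCR was -0.55, within the probe set SD of 0.65, and on VILLIN-HA/CL4-TCR it was 0.02. No setting of the 8 brought Cd27 past 2-fold in any comparison, though those of the floor and of probe set choice could not alter its values.

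**Figure D4:**
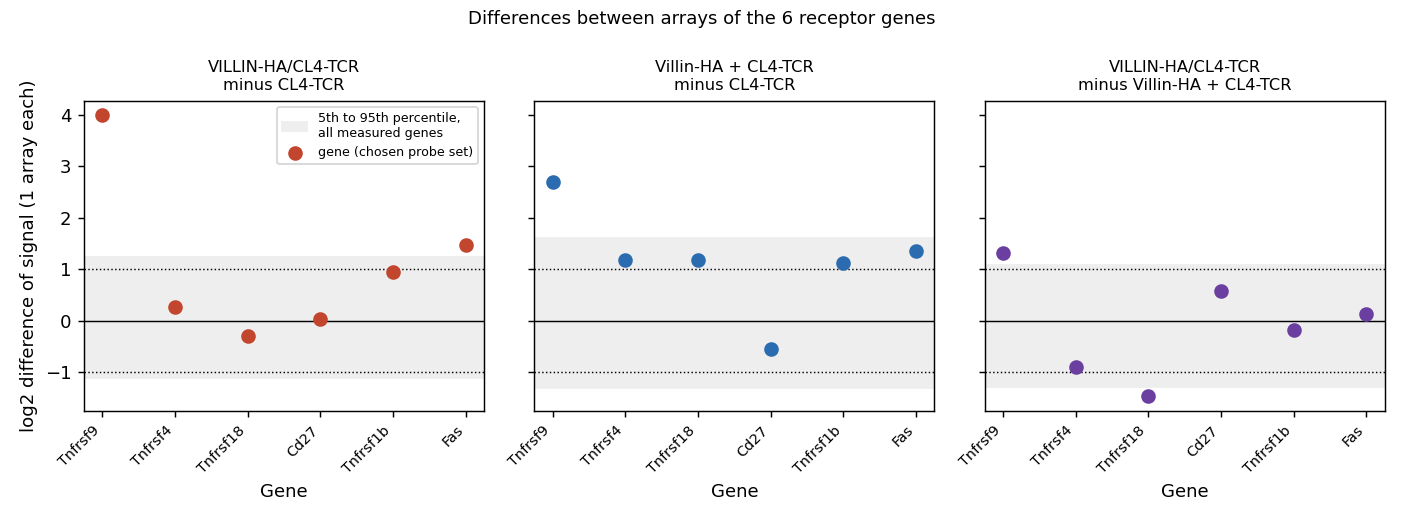
Differences of MAS5 signal (log2 scale) of the 6 genes in the 3 comparisons, each point 1 array against another, with dotted lines at 2-fold and a grey band for the middle of all measured genes (5th to 95th percentile). Tnfrsf9 lies above the band in all 3 panels, at 4.01, 2.69 and 1.32, while Tnfrsf18 is at -0.29, 1.18 and -1.47.

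Set directly against each other, the HA arrays differed by 2-fold in 2 of the 6 genes, in opposite directions. VILLIN-HA/CL4-TCR was higher in Tnfrsf9 and lower in Tnfrsf18, against 6.13% of 12081 measured genes that were higher and 8.95% that were lower, 15.1% in all. Among all measured genes, 320 had a larger positive difference than Tnfrsf9 and 423 a more negative one than Tnfrsf18. The median of the 6 members was -0.03, and 3 of them were positive and 3 negative. Muscle, myeloid and stromal transcripts and the Gapdh 3′ to 5′ ratio also differ between these arrays, as given above, and their part in these differences was not tested. The actin ratio differs less between the HA arrays. B cell markers summed to 469.6 on VILLIN-HA/CL4-TCR and 419.9 on Villin-HA + CL4-TCR. Of 4 measured ones, 1 was past 2-fold, Ms4a1, which was 2.80-fold higher on the former. Pax5 went the same way with 51.8 and 26. Cd79b, with 199.1 and 233.1, and Cr2, with 18.1 and 44.1, went the other way. NK cell markers summed to 2106 and 3706, with Klrk1, which activated CD8 T cells also express, at 33.3 and 425.1. Their part was not tested either. CD4 T cell markers summed to 89.8 and 133. Foxp3, in regulatory CD4 T cells the lineage factor, had signals of 29.6, 38.2 and 86.4. It was 2.26-fold lower on VILLIN-HA/CL4-TCR than on Villin-HA + CL4-TCR. Zbtb7b, by its chosen probe set, had 60.9, 18.2 and 24.9, so CL4-TCR was its high array. Cd4 and Cd40lg lay below the floor on each array. The part of CD4 T cells was not tested.

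The likeness of patterns was measured as the distance between the pairs of log2 differences from CL4-TCR, over 3 arrays and 9014 genes above the floor on all of them. Few genes lay near Tnfrsf9, as few genes have differences that large. The radius of 0.25 used below is smaller than the probe set SDs of 0.43 and 0.65, so the order of near genes is uncertain. Irf4, a transcription factor of activated lymphocytes, was nearest at a distance of 0.18, followed by Ikzf2, which encodes Helios, at 0.20. Irf4 had signals of 49.6, 886.9 and 338.8. Only 3 genes lay within 0.25 of Tnfrsf9, and the last of them, Casp4, is named because the count is so small. The other members have smaller differences, where more genes lie. Within 0.25 were 37 genes for Fas, 55 for Tnfrsf18, 134 for Tnfrsf4, 138 for Tnfrsf1b and 554 for Cd27. The nearest to Fas were Aplp2 and Prr13, to Tnfrsf18 BC029722 and Lrp8, to Tnfrsf4 Spats1 and Kcp, to Tnfrsf1b Lsm3 and Stard4, and to Cd27 Gnb1l and Ccdc97, all at distances from 0.0045 to 0.051. Among the members themselves, the closest pairs were Tnfrsf4 with Tnfrsf18 at 0.56 and Tnfrsf1b with Fas at 0.57, and the farthest was Tnfrsf9 with Cd27 at 5.14. Even the closest pairs lay farther apart than the radius of 0.25, within which many other genes lay near each of these receptors.

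Of the 6 ligand genes found, 4 lay below the floor on the CL4-TCR array. Those could count as measured only through an HA array above the floor and so could not be lower there, and for this reason no count over the ligands is given. Tnfsf9, the 4-1BB ligand, had signals of 3.7, 96.8 and 26.6. It is above the floor on VILLIN-HA/CL4-TCR alone, the array with the highest Tnfrsf9, and at least 3.05-fold higher there. Tnfsf4, the OX40 ligand, best known on antigen-presenting cells, had signals of 26.7, 167.4 and 195.7. It was at least 5.28-fold and at least 6.17-fold higher on the HA arrays. The sum of myeloid and dendritic cell markers was higher there too, a part that was not tested.

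Fasl, the death ligand of killer cells, had signals of 19.9, 25.7 and 202.5 with its chosen probe set, and a second one was below the floor on all arrays. It was at least 6.39-fold higher on Villin-HA + CL4-TCR, whereas its receptor Fas differed by less than 2-fold between the HA arrays. Tnf, a ligand of Tnfrsf1b, had signals of 43, 110.8 and 104.2, which is 2.58-fold and 2.42-fold higher, an order like that of Fas. Lta, or lymphotoxin alpha, had 50.9, 94.6 and 16.8, with log2 differences of 0.89 and -0.68, the latter a bound. Cd70, the ligand of Cd27, lay below the floor throughout, at 2.0, 26.4 and 16.4.

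Other receptors of the TNF family went in both directions. Of 14 measured genes, 3 were higher and none lower on VILLIN-HA/CL4-TCR than on CL4-TCR, with a median of -0.03, and 2 were higher and 2 lower on Villin-HA + CL4-TCR, with a median of 0.29. Over all measured genes, 14.1% and 21.4% were past 2-fold in these comparisons. Those of the 14 that lay below the floor on CL4-TCR could not be lower on an HA array. Tnfrsf25 (DR3), a costimulatory receptor with a death domain, had signals of 325, 229.6 and 114.2 and was 2.85-fold lower on Villin-HA + CL4-TCR. Tnfrsf14 (HVEM) had 80.4, 74.3 and 26.6, at least 2.54-fold lower there. Both were lowest on Villin-HA + CL4-TCR, like Cd27, where Tnfrsf4 and Tnfrsf18 were highest.

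Tnfrsf13b (TACI), chiefly a receptor of B cells, was 2.31-fold higher on VILLIN-HA/CL4-TCR and 3.10-fold higher on Villin-HA + CL4-TCR, and B cell markers summed to 309.8, 469.6 and 419.9 on the 3 arrays. Ltbr, the lymphotoxin beta receptor, typically of stromal and myeloid cells, was at least 2.08-fold and at least 2.70-fold higher. The part of other cells in either was not tested. Tnfrsf19 had a signal above the floor on VILLIN-HA/CL4-TCR, 121.9, and was at least 3.85-fold higher there, while another of its probe sets gave a bound of 0.82 on the log2 scale. Tnfrsf1a, the TNF receptor with a death domain, had signals of 408.9, 279.6 and 206.1 and log2 differences of -0.55 and -0.99, so it ran opposite to Tnfrsf1b without passing 2-fold.

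Of 17 TRAF adaptors and ubiquitin enzymes, which carry or edit the signal, 2 were higher and 1 lower on VILLIN-HA/CL4-TCR, and 2 were higher and none lower on Villin-HA + CL4-TCR. Over all measured genes 14.1% and 21.4% differed by 2-fold. The median was 0.11 in both comparisons. Traf1 and Traf2, which bind 4-1BB, had log2 differences from CL4-TCR of 0.07 and 0.11 on VILLIN-HA/CL4-TCR, and of 0.11 and 0.01 on Villin-HA + CL4-TCR, where a second Traf1 probe set had -0.76. Traf5, an adaptor of OX40, CD27 and GITR, was 2.49-fold lower on VILLIN-HA/CL4-TCR with the stronger of 2 probe sets, and the weaker had a log2 difference of 0.09. Tnfaip3 (A20), an NF-kappaB target that shuts the pathway off again, had signals of 778.4, 1574.9 and 8236.5. It was 2.02-fold and 10.6-fold higher, and its probe sets were close on Villin-HA + CL4-TCR, at 3.29 and 3.40.

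Tank, a TRAF-binding regulator, was 2.20-fold higher on VILLIN-HA/CL4-TCR and Traf4 at least 3.88-fold higher on Villin-HA + CL4-TCR. Between the HA arrays, Rnf31, which encodes a subunit of the linear ubiquitin ligase, was 2.33-fold lower on VILLIN-HA/CL4-TCR.

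Among 16 genes of the NF-kappaB pathway, 3 were higher and 1 lower on VILLIN-HA/CL4-TCR, and 4 were higher and 3 lower on Villin-HA + CL4-TCR. Medians were 0.11 and -0.29, and 14.1% and 21.4% of all measured genes were past 2-fold. Rel, the c-Rel subunit of lymphocytes, had signals of 46.6, 150.4 and 538.8, which is 3.23-fold and 11.6-fold higher. Nfkb2, the precursor of p52 in the alternative pathway, was 2.60-fold and 4.15-fold higher with the probe set chosen, and the second one had a log2 difference of -0.33 on VILLIN-HA/CL4-TCR. Map3k14 (NIK), the kinase that starts the alternative pathway below OX40, CD27 and 4-1BB, went the other way with 173.9, 68.2 and 26. It was 2.55-fold lower on VILLIN-HA/CL4-TCR, with both probe sets lower. On Villin-HA + CL4-TCR it was at least 5.49-fold lower by the chosen probe set, while the other probe set had a log2 difference of 0.32. The inhibitor gene Nfkbie was 2.02-fold and 2.00-fold higher on the HA arrays, at the edge of the 2-fold limit, and its probe sets ran from 0.64 to 1.02 on VILLIN-HA/CL4-TCR. Nfkbiz was 2.24-fold higher on Villin-HA + CL4-TCR, where its probe sets ran from 0.21 to 1.16 on the log2 scale, and Bcl3 was 2.13-fold higher on VILLIN-HA/CL4-TCR than on Villin-HA + CL4-TCR.

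In the death receptor pathway below Fas, none of 13 measured genes was higher and 1 was lower on VILLIN-HA/CL4-TCR, where 14.1% of all measured genes differed by 2-fold either way. On Villin-HA + CL4-TCR, 2 were higher and 1 lower, where 21.4% of all genes differed. The medians were -0.03 and 0.0012. Fadd, the adaptor that binds Fas, had signals of 161, 78.7 and 122, and was 2.05-fold lower on VILLIN-HA/CL4-TCR. Casp8, the caspase that Fadd recruits, had 552.9, 314.1 and 765.5 and was 2.44-fold lower on VILLIN-HA/CL4-TCR than on Villin-HA + CL4-TCR. The HA arrays thus differed by less than 2-fold in Fas and by more in Casp8, each by 1 probe set and 1 array per group. Cflar, which encodes the Casp8 inhibitor c-FLIP, was 3.04-fold lower on Villin-HA + CL4-TCR by its chosen probe set, and its 5 probe sets ran from -1.61 to 0.72 on the log2 scale. Apaf1 and Ripk3, of the mitochondrial and necroptotic death pathways, were 2.68-fold and 2.66-fold higher on that array.

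Survival genes that costimulation is known to control had 3 of 8 higher and 1 lower on VILLIN-HA/CL4-TCR, and 5 higher and 1 lower on Villin-HA + CL4-TCR, with medians of -0.21 and 1.24. Over all measured genes, 7.43% were higher and 6.63% lower in the first comparison, and 11.9% and 9.53% in the second. Bcl2l1, the Bcl-xL gene that 4-1BB and OX40 signals are known to induce, had signals of 111.3, 434.2 and 262.6. This is the order of Tnfrsf9 and not that of Tnfrsf4, and a link to either receptor was not tested. Bcl2l1 was 3.90-fold higher on VILLIN-HA/CL4-TCR and 2.36-fold higher on Villin-HA + CL4-TCR. Of its 4 probe sets only 1 was measured. Bcl2l11, which encodes the death-promoting Bim, had 1381.1, 5392.6 and 3246.5, also highest on VILLIN-HA/CL4-TCR, and was 3.90-fold and 2.35-fold higher. Its 5 probe sets ran from 0.54 to 2.02 on VILLIN-HA/CL4-TCR and from 0.92 to 1.57 on Villin-HA + CL4-TCR. By the chosen probe sets, a gene that protects and a gene that kills were thus both higher on both HA arrays. Birc5 (survivin), which is also a gene of dividing cells, was 6.75-fold and 16.5-fold higher.

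Bcl2 was 3.54-fold lower on Villin-HA + CL4-TCR by its chosen probe set, though its 5 probe sets ran from -1.82 to 1.17 on the log2 scale. Pim1, a survival kinase, had 220.6, 170 and 1126.5 and was 5.11-fold higher on Villin-HA + CL4-TCR, where its 2 probe sets had log2 differences of 1.85 and 2.35. Akt1 had 220.6, 69.8 and 621.2 by its chosen probe set, 3.16-fold lower on VILLIN-HA/CL4-TCR and 2.82-fold higher on Villin-HA + CL4-TCR, but its measured probe sets ran from -0.20 to 1.49 on the latter.

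**Figure D5:**
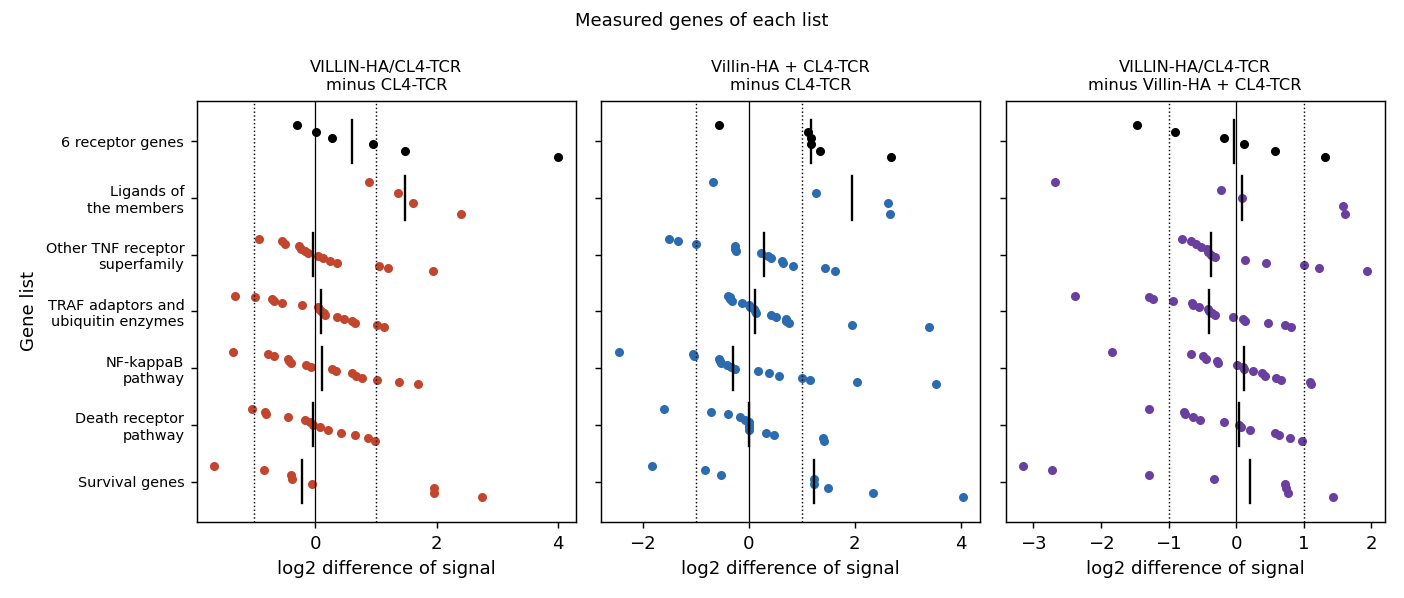
Differences of MAS5 signal (log2 scale) of the measured genes of each list in the 3 comparisons, 1 point per gene, with a bar at the median of each list and dotted lines at 2-fold. The medians of the 6 receptor genes are 0.61, 1.18 and -0.03, while those of the TRAF list are 0.11, 0.11 and -0.40.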

How the data were processed

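RNA of 3 groups of mouse CD8 T cells was measured on 1 array each, from 6 µg of total RNA per the labels' protocols. The deposited values are intensity values, MAS5 signals per the submitters' processing notes (no version); the sources used here give no background or scaling settings. The 2% trimmed mean is 150 on each array, so a change common to most transcripts is scaled away. Detection calls were not used here. Groups were taken from the source name.

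Of 45101 probe sets, 34958 had 1 symbol, 932 several and 9211 none, by the platform's annotation. Symbols were updated by Entrez identifier to RefSeq (GRCm38.p6), which matched 34754. The 18194 genes were represented by the probe set of highest mean signal. The floor is the median of all values, the 50th percentile, and 7 alternatives were tried, 6 listed beforehand and 1, scaling to CD8 T cell markers, chosen after seeing the data. No test across samples is possible. The calling step was run on simulated data with strong signals, planted changes well past 2-fold and less noise than the probe set SD. That run checks the code only and does not measure the error of these arrays. The number of arrays limits the precision.

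Besides the members, 92 names in 6 lists were followed, of which 81 were found. In each list and comparison the 4 largest differences past 2-fold are named, with the ligands in any case, and for likeness the 2 nearest genes; other named genes were chosen after their values were seen. Members and lists were chosen with earlier results of these data known. Promoter windows, from RefSeq, were matched for all 6 members. Python 3.11.15, numpy 2.4.6 and pandas 2.3.3 were used.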

Additional observations from a re-analysis of the deposited data

Results flagged for a closer look

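In 3 of the genes followed here, the HA arrays lay on opposite sides of the CL4-TCR array, with at least 1 of the 2 differences from CL4-TCR past 2-fold. With 1 array per group, the difference between the HA arrays was not tested. Tnfrsf18 had a log2 difference from CL4-TCR of -0.29 on VILLIN-HA/CL4-TCR and 1.18 on Villin-HA + CL4-TCR, and the former was -1.47 against the latter; the -0.29 is smaller than the probe set SD of 0.43. Pim1 had -0.38 and 2.35, and -2.73 between the HA arrays. Akt1 had -1.66 and 1.49, and -3.15 between the HA arrays, where its measured probe sets ran from -3.15 to -0.44.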

How the results depend on the processing

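The 7 alternatives (a floor at the 65th percentile, a pseudocount in place of the floor, scaling to the median, quantile normalization, the median over probe sets, no probe sets that can match several transcripts, and scaling to CD8 T cell markers) left 20 of 21 counts of members within 1.5 times of the reported one. The exception was Villin-HA + CL4-TCR against CL4-TCR, where 2 members in place of 5 were past 2-fold with arrays scaled to the same median; this scaling moved the median of all measured genes there from 0.06 to -0.14, and the 3 members lost had differences of 0.92 to 0.98. Of 126 member differences, 120 stayed on their side of 2-fold, 4 were lost and 2 were gained, and none past 2-fold changed direction. Many of the 120 could not move. Where a gene has 1 probe set with signals above the higher floor, that floor and both changes of probe set choice leave its values as they were. Probe sets that can match several transcripts were kept where a gene had no other, as for Tnfrsf18. The 4 lost were Tnfrsf4, Tnfrsf18 and Tnfrsf1b under median scaling and Tnfrsf9 with the median over probe sets (0.69), all on Villin-HA + CL4-TCR; the 2 gained were Tnfrsf1b on VILLIN-HA/CL4-TCR, at 1.01 under median scaling and 1.09 under scaling to CD8 markers. For the pathway lists, 11 genes in place of 17 passed 2-fold between the HA arrays with the higher floor. The share of higher among called genes moved from 55.6% to 38.4% on Villin-HA + CL4-TCR under median scaling, from 52.9% to 65.7% on VILLIN-HA/CL4-TCR under scaling to CD8 markers, and from 40.7% to 67.1% and 59.4% between the HA arrays under these scalings. No paired analysis was possible because each group has 1 array. Signals near the floor, such as Tnfrsf9 on CL4-TCR, limit what a fold can show.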
